A study of Rattus norvegicus with 4 samples.

Results

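Rat chromosomes 10 and 12 carried 653 of the 11570 H1T2 peaks in the deposited list, 418 on chromosome 10 and 235 on chromosome 12, which together is 5.64% of the list (95% Wilson interval 5.24 to 6.08%). Peaks were chosen by the exact chromosome name, and 0 peaks lay on contigs assigned to either chromosome. The 2 chromosomes were themselves selected on values measured in this list, since their peak lengths and fold enrichments were known beforehand. Lengths, pileups, backgrounds and fold enrichments of these peaks are therefore given as a description beside the other 18 autosomes, and no difference was tested.

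H1T2 is a linker histone made only in male germ cells after meiosis. It gathers at the apical pole of the spermatid nucleus, and male mice without it have reduced fertility and spermatids that condense poorly. Linker histones bind DNA where it enters and leaves the nucleosome. Chromosome 10 of the rat carries the protamine and transition protein 2 gene cluster and Hils1, the gene of another spermatid linker histone, while chromosome 12 is among the rat chromosomes with a nucleolus organizer.

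Chromatin of testes nuclei from rats aged 35 to 50 days was immunoprecipitated with an antibody against H1T2, and 2 H1T2 IP samples and 2 input samples of this chromatin were sequenced. The labels give the cells as spermatids of the round and elongating stages, and no strain, genotype or treatment was given in the sources used here. Nuclei came from testes, and a list of bound DNA holds no expression values by which the stage of the cells could be checked. By the header of the list alignments were merged before peaks were called, so that each peak has 1 value and no spread between replicates. Intervals below for the fold enrichment of single peaks cover counting error of tags only. Those for counts, densities, shares and medians treat peaks as independent of each other. No interval covers a difference between replicates.

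The peak of the largest fold enrichment on either chromosome lay in the single exon of Hils1, at chr10:82775783-82776373 of rn6. The promoter of this gene is shown because the reference tables used here give a sequence for it and none for the peak. It runs from 250 bases before the start of the gene to 50 bases after it, at chr10:80410111-80410410 on the + strand of GRCr8 (RefSeq), an assembly other than that of the peaks, and its position relative to the peak was not computed. CG dinucleotides are in capitals.
Hils1 promoter: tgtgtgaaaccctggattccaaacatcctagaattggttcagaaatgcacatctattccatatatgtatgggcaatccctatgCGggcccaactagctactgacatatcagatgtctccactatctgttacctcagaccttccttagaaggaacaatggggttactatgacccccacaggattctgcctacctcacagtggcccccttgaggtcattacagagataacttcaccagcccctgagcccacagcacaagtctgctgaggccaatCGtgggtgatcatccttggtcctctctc
The window holds 2 CG dinucleotides, against a median of 7 over the 33469 promoters of the same length, of which 22.3% hold at most 2 (CG reads the same on both strands). Its GC content is 49.0%, and the median is 51.7%. In GRCr8 the gene lies within Sgca, a muscle sarcoglycan gene, near Col1a1, which encodes a collagen chain. Sequences of the peaks themselves were not used here.

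Both chromosomes bore out the description as gene-rich. In the RefSeq annotation of GRCr8, chromosome 10 holds 1788 of the 22133 protein-coding genes of the autosomes (8.08%), although it makes up 4.30% of the summed span of the autosomes, taken in rn6 from the first base of each chromosome to its last peak. Chromosome 12 holds 672 genes (3.04%) on 2.01% of the span. By the ratio of these shares, chromosomes 10 and 12 ranked 1 and 3 among the 20 autosomes, with chromosome 19 at rank 2 and chromosome 20 at rank 4. The shares of peaks were smaller than those of genes. Chromosome 10 had 3.96% of the autosomal peaks and chromosome 12 had 2.22%, shares closer to those of the span. For each 100 protein-coding genes there were 23.4 peaks on chromosome 10 and 35.0 on chromosome 12, against 50.4 on the other 18 autosomes pooled. Both chromosomes were chosen as gene-rich, and their peaks per Mb lay within the range of the others. Fewer peaks per gene than in the pool thus largely follow from that choice. Chromosome 10 had the fewest of all 20, while chromosome 12 lay among others, between 33.7 on chromosome 3 and 35.6 on chromosome 8.

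The density of peaks was unremarkable on both chromosomes. On chromosome 10 it was 3.71 per Mb (3.37 to 4.09, an exact Poisson interval of 95%) over a span of 112.5 Mb, and 12 of the other 18 autosomes had more. On chromosome 12 it was 4.46 per Mb (3.91 to 5.07) over 52.6 Mb, and 3 of the 18 had more. The 18 autosomes pooled had 4.04 (3.96 to 4.12), with single values from 3.44 on chromosome 8 to 5.07 on chromosome 19. Neither value lay outside the range of the others.

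The background set the peaks of both chromosomes apart from those of the 18 autosomes, as values and without a test. Their median pileup, fold enrichment, p-value and length, given below, also lay outside the range of the 18 single medians. For each peak, background is the pileup (IP tags at the summit) divided by the fold enrichment, and is the number of tags that the peak caller took as the local level of the input scaled to the IP. The median was 2.27 tags on chromosome 10 (95% order-statistic interval 2.07 to 2.48) and 2.07 tags on chromosome 12 (1.86 to 2.07), against 3.72 tags (3.52 to 3.72) over the pooled 18 autosomes. Singly the 18 medians ran from 2.89 tags on chromosome 8 to 4.14 tags on chromosome 19, so that both values lay below each of them.

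The background cannot be lower than a floor set for the whole genome, which comes to 1.65 tags from the depth of the IP, the extension of its tags and the genome size. At this smallest background, within 0.01 tags, lay 147 peaks of chromosome 10 (35.2%, 95% Wilson interval 30.7 to 39.9%) and 93 of chromosome 12 (39.6%, 33.5 to 45.9%), while over the whole list it was 16.1%. On the 18 autosomes the share was 15.3% (14.6 to 16%) pooled, and singly it went from 8.42% on chromosome 2 to 25.4% on chromosome 20. A background above 10 tags was found for 18 peaks of chromosome 10 (4.31%, 2.74 to 6.70%) and 20 of chromosome 12 (8.51%, 5.58 to 12.8%), with 9.39% over the whole list.

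Counted separately, the peaks at and above the smallest background had densities that differed in opposite directions from those of the 18 autosomes. At the smallest background there were 1.31 peaks per Mb on chromosome 10 (95% exact Poisson interval 1.10 to 1.54) and 1.77 on chromosome 12 (1.43 to 2.16), against 0.618 (0.588 to 0.650) on the pooled autosomes. Above it there were 2.41 (2.13 to 2.71) and 2.70 (2.27 to 3.18), against 3.42 (3.35 to 3.50). The near-average total density of both chromosomes was thus the sum of more peaks at the smallest background and fewer above it. Both chromosomes exceeded all 18 others at the smallest background, and above it chromosome 10 was below all 18 and chromosome 12 below all but chromosome 8. The nearest values were close to those of chromosome 10, since chromosome 20 had 1.23 peaks per Mb (0.955 to 1.55) at the smallest background and chromosome 8 had 2.65 above it.

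**Figure D1:**
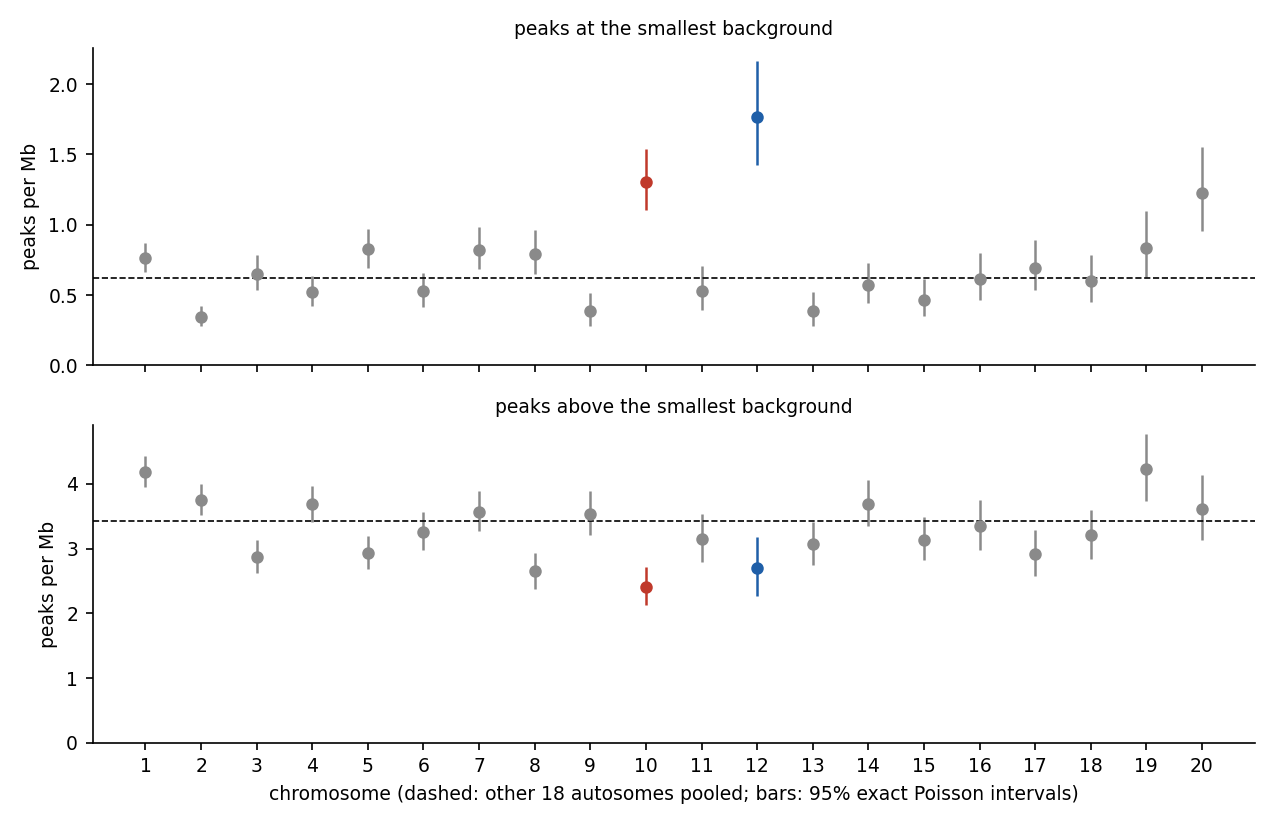
Peaks per Mb of span for each of the 20 autosomes, at the smallest background of 1.65 tags (top) and above it (bottom), with 95% exact Poisson intervals as bars and the pooled value of the other 18 autosomes as a dashed line. Chromosomes 10 (red) and 12 (blue) lie above the line of 0.618 at the top and below the line of 3.42 at the bottom.

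Pileups were also smaller. The median was 16 tags on chromosome 10 (16 to 16) and 16 tags on chromosome 12 (14 to 16), against 22 tags on the pooled 18 autosomes and single medians of 20 to 24 tags. A pileup of at least 30 tags was reached by 55 peaks of chromosome 10 (13.2%, 10.3 to 16.7%) and 38 of chromosome 12 (16.2%, 12 to 21.4%), with 26.9% over the whole list. At the smallest background the median was 14 tags on both chromosomes and on the pooled autosomes, but as pileups rise in steps of 2 tags from the limit of calling this median can hardly differ. Exactly 12 tags were found for 44 of these peaks on chromosome 10 (29.9%) and 40 on chromosome 12 (43%), against 25.9%, and at most 14 tags for 69.4% (61.5 to 76.3%) and 73.1% (63.3 to 81.1%), against 61.6% (59.1 to 64%). Above the smallest background the medians were 20 tags (18 to 20) and 19 tags (18 to 24), against 24 tags.

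Fold enrichment was higher at the median in spite of the smaller pileups. It was 7.03 on chromosome 10 (95% order-statistic interval 6.77 to 7.26) and 7.26 on chromosome 12 (7.03 to 7.26), against 6.05 on the pooled 18 autosomes and single medians from 5.53 on chromosome 19 to 6.65 on chromosome 5. A peak of 12 tags over the smallest background has a fold enrichment of 7.26, the median of chromosome 12. The counting error of such a peak allows a fold enrichment from 3.75 to 12.7, or from 2.66 to 15.8 when its tags are counted as 6 pairs, since all pileups are even. Intervals of single peaks below count each tag and are likewise too narrow if tags come in pairs. Strong enrichment was not more frequent on chromosome 12, and on chromosome 10 its share was smaller. A fold enrichment of at least 10 was found for 19 peaks of chromosome 10 (4.55%, 2.93 to 6.99%) and 18 of chromosome 12 (7.66%, 4.90 to 11.8%), with 7.87% over the whole list. The share on chromosome 10 was below those of all 18 other autosomes, of which the smallest was 6.11%, and that on chromosome 12 lay among them.

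By p-value the peaks were weaker than those elsewhere in the list. The -log10 p-value, which weighs the pileup against the background as a Poisson count, had a median of 9.51 on both chromosomes and of 10.61 on the pooled 18 autosomes. At least 10 was reached by 172 peaks of chromosome 10 (41.1%, 36.5 to 45.9%) and 98 of chromosome 12 (41.7%, 35.6 to 48.1%), with 54.0% over the whole list. The 18 autosomes singly had from 49.1 to 59.8%.

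**Figure D2:**
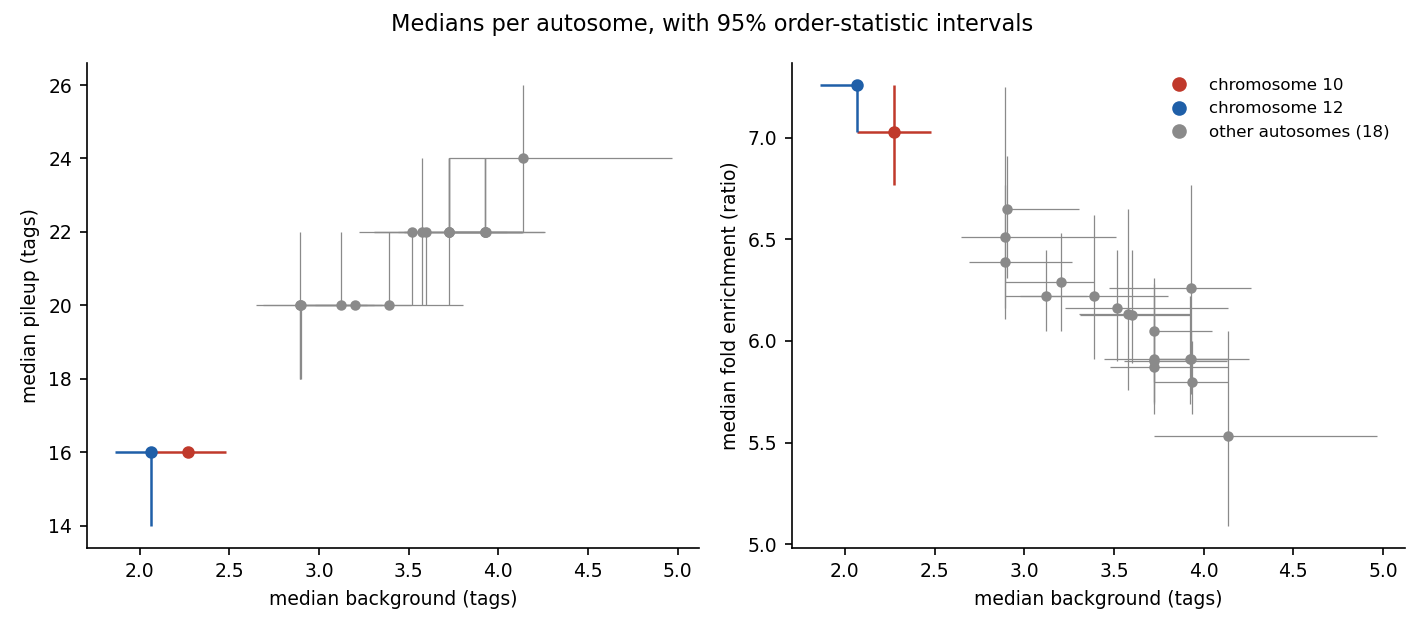
Median pileup (left) and median fold enrichment (right) against median background for the peaks of each autosome, with 95% order-statistic intervals as bars. Chromosomes 10 (red) and 12 (blue) have the smallest median backgrounds, 2.27 and 2.07 tags, together with a median pileup of 16 tags and median fold enrichments of 7.03 and 7.26.

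Within ranges of equal background the differences in fold enrichment went in both directions. At the smallest background the fold follows the pileup alone, and its median was 8.47 on chromosome 10 (8.46 to 8.47), 8.46 on chromosome 12 (7.26 to 8.47) and 8.47 on the pooled 18 autosomes. Between the smallest background and 3 tags it was 6.77 on chromosome 10 (6.45 to 7.03), below the 7.33 (7.25 to 7.44) of the pooled autosomes, and 6.84 on chromosome 12 (6.45 to 7.52). From 3 to 5 tags it was 6.11 (5.47 to 6.45) and 6.38 (5.6 to 6.65), against 5.72. From 5 to 10 tags the 3 values were 4.21 (3.87 to 4.73), 4.53 (3.87 to 6.45) and 4.46. Over 10 tags they were 4.17 (2.95 to 5.19), 3.09 (2.76 to 3.50) and 3.465. Pooled, the peaks above the smallest background had medians of 6.16 (5.80 to 6.42) and 6.22 (5.80 to 6.56), against 5.64, and both lay above each of the other 18 autosomes, of which the largest was 5.905. Within this class the median backgrounds were also smaller, 3.10 and 2.89 tags against 4.14. The shares of peaks in these ranges differed more than the fold enrichments did. The ranges were chosen after the values were seen. From 5 to 10 tags lay 11% of the peaks of chromosome 10 and 8.94% of those of chromosome 12, against 23.1% on the pooled autosomes.

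**Figure D3:**
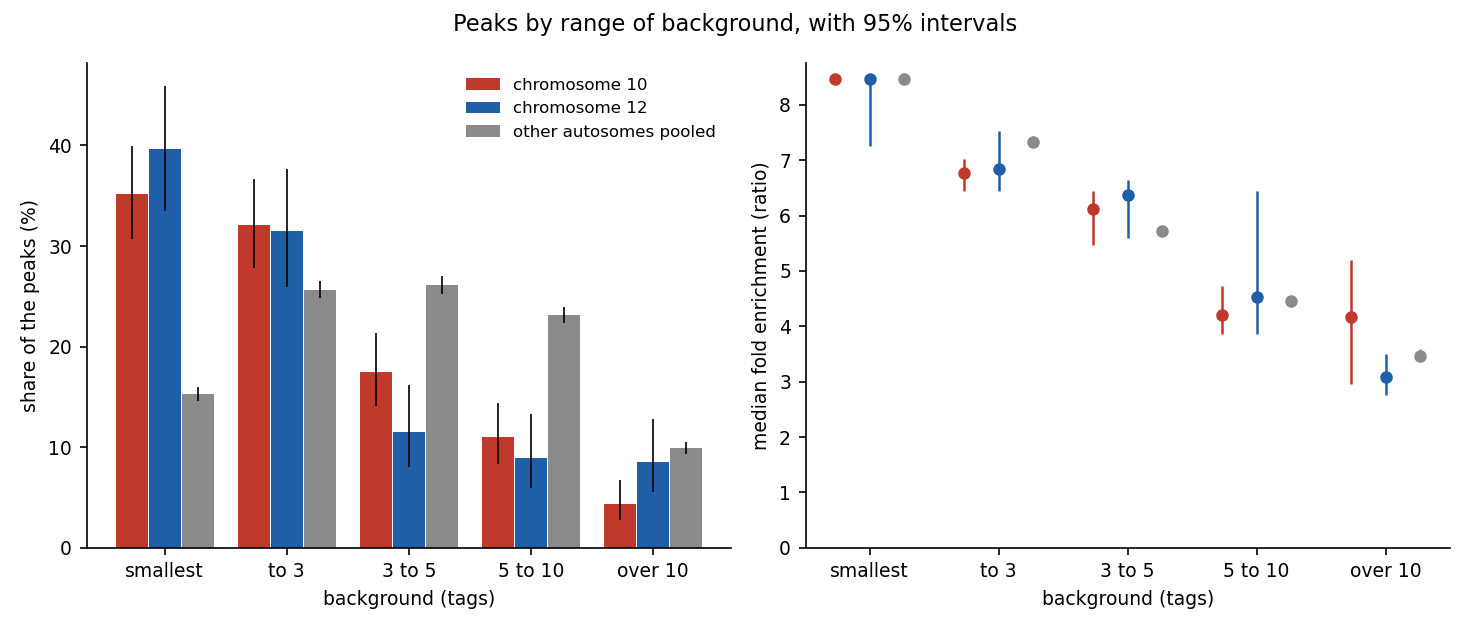
Share of the peaks (left, 95% Wilson intervals) and median fold enrichment (right, 95% order-statistic intervals) in 5 ranges of background in tags, for chromosome 10 (red), chromosome 12 (blue) and the other 18 autosomes pooled (grey). The smallest background holds 35.2 and 39.6% of the peaks of the 2 chromosomes and 15.3% of the others, with median fold enrichments of 8.47, 8.46 and 8.47.

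Peaks were short. The median length was 254 bp on chromosome 10 (95% order-statistic interval 243 to 263 bp) and 243 bp on chromosome 12 (226 to 259 bp), against 267 bp (265 to 270 bp) on the pooled 18 autosomes and single medians from 258 to 290.5 bp. The smallest length in the list, 200 bp, was that of 105 peaks on chromosome 10 (25.1%, 21.2 to 29.5%) and 72 on chromosome 12 (30.6%, 25.1 to 36.8%), with 18.4% over the whole list. Split by background, the lengths of chromosome 12 came closer to the rest above the smallest background, and those of chromosome 10 did not. At the smallest background the medians were 222 bp (206 to 253 bp) and 201 bp (200 to 221 bp), against 216 bp, and above it 264 bp (247 to 281 bp) and 273.5 bp (249 to 302 bp), against 276 bp. Each of these 4 intervals includes the pooled value, although the 264 bp of chromosome 10 is below all 18 single medians.

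Among gene-rich chromosomes the pattern was not shared evenly. Chromosome 19, with 315 peaks, had a median background of 4.14 tags (3.72 to 4.97) and 16.5% of its peaks at the smallest background (12.8 to 21%), which is near the whole list. Chromosome 20, with 272 peaks, lay between, with a median background of 2.89 tags (2.65 to 3.51) and a share of 25.4% (20.6 to 30.9%). Values like those of chromosome 20 also occurred on chromosomes with smaller ratios of gene share to span share. Chromosomes 8 and 5, at ranks 7 and 9 by this ratio (1.14 and 0.94), had medians of 2.89 and 2.90 tags. Their shares at the smallest background were 23.1 and 22.0%. The share on chromosome 10 exceeded that on chromosome 20 with intervals that overlap slightly.

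In fixed 5 Mb bins counted from the first base, chromosome 10 filled 23 bins and chromosome 12 filled 11, and 0 bins were empty. The 22 full bins of chromosome 10 held 8 to 32 peaks with a median of 19, and the 10 full bins of chromosome 12 held 11 to 40 with a median of 22.5. The 483 full bins of the 18 autosomes held 4 to 117 with a median of 18 (quartiles 14 and 23). Bins as dense as the most extreme ones elsewhere did not occur on either chromosome.

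The small backgrounds were found in most bins of both chromosomes. The median background was below the pooled 3.72 tags in 21 of 23 bins of chromosome 10 and in 10 of 11 bins of chromosome 12. The exceptions on chromosome 10 were bin 1, with a median of 4.09 tags, and bin 16, with 4.03 tags. On chromosome 12 the exception was bin 1, with 7.42 tags. The share of peaks at the smallest background exceeded the pooled 15.3% in 21 bins of chromosome 10 and in 10 bins of chromosome 12. Counts of this kind are not given here for the bins of the other autosomes, so that these have no value for comparison.

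The densest bin of chromosome 10 was bin 22, chr10:105000001-110000000, with 32 peaks (7.66% of the chromosome, 95% Wilson interval 5.47 to 10.6%). Of these, 19 were at the smallest background (59.4%, 42.3 to 74.5%), and the largest -log10 p-value in the bin was 17.52. At least 32 peaks were found in 37 of the 483 full bins of the other autosomes (7.66%, 5.61 to 10.4%). The strongest pair of peaks there were chr10:105417479-105417809, where 44 tags gave a 5.07-fold enrichment (95% exact Poisson interval 3.68 to 6.81), and chr10:105079756-105080097, with 30 tags and 7.40 (4.99 to 10.6). The peaks of this bin were about as weak as those of the whole chromosome, with a median -log10 p-value of 9.51 in both. Their median pileup was 15 tags, against 16 tags. The place of the densest bin depended on the boundaries, since with bins shifted by 2.5 Mb it was chr10:82500001-87500000 with 35 peaks.

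On chromosome 12 the densest bin was bin 4, chr12:15000001-20000000, with 40 peaks (17%, 12.8 to 22.3%), of which 20 were at the smallest background. At least 40 peaks were found in 20 of the 483 full bins of the other autosomes (4.14%, 2.70 to 6.31%). The strongest pair were chr12:15223459-15223859, an intergenic RatSatRep2 repeat nearest to Gna12 (a G protein alpha subunit) with a fold enrichment of 12.25 (8.67 to 16.8), and chr12:19991749-19992050, in an intron with Vom2r61 as the nearest gene, with 9.67 (6.91 to 13.2). With bins shifted by 2.5 Mb the densest was chr12:7500001-12500000 with 32 peaks.

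**Figure D4:**
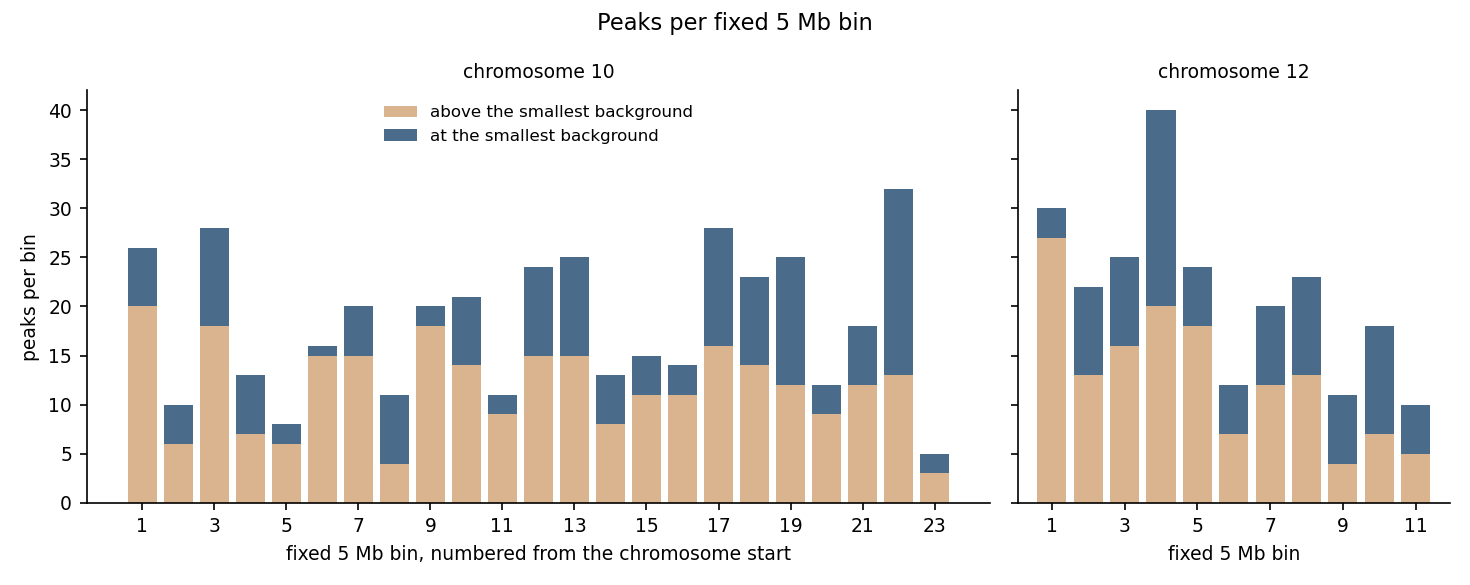
Number of peaks in each fixed 5 Mb bin of chromosome 10 (left) and chromosome 12 (right), divided into peaks above the smallest background (tan) and at it (blue). The tallest bars are bin 22 of chromosome 10, with 32 peaks of which 19 are at the smallest background, and bin 4 of chromosome 12, with 40 peaks of which 20 are.

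The start of chromosome 12 was unlike the rest of the chromosome. Its first bin held 30 peaks with a median pileup of 32 tags, a median background of 7.42 tags and a median fold enrichment of 3.80, and 3 of the 30 were at the smallest background. Over the whole of chromosome 12 a background above 50 tags was given for 10 peaks (4.26%, 2.33 to 7.65%), 9 of them in this bin, against 0 peaks of chromosome 10 and 1.75% of the whole list. These 10 peaks had pileups of 156 to 382 tags and fold enrichments of 1.51 to 3.24, so that tall peaks with a high background were weakly enriched.

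The share of peaks with another peak within 10 kb was smaller than on the pooled autosomes, less clearly on chromosome 12. The median gap between peaks was 162 kb on chromosome 10 (95% order-statistic interval 117 to 188 kb) and 125 kb on chromosome 12 (97.1 to 156 kb), and 130 kb (125 to 137 kb) on the pooled 18 autosomes. Another peak lay within 10 kb of 94 peaks of chromosome 10 (22.5%, 18.7 to 26.7%) and 58 of chromosome 12 (24.7%, 19.6 to 30.6%), against 30.9% (30 to 31.8%) on the pooled autosomes. The interval of chromosome 12 overlaps the pooled one, and neither difference was tested.

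Genomic annotation by HOMER was used for the 1930 strongest peaks of the list, each with a -log10 p-value of at least 17.78. Of these, 32 were on chromosome 10 (7.66% of its peaks, 5.47 to 10.6%) and 31 on chromosome 12 (13.2%, 9.45 to 18.1%), with 16.7% over the whole list. Intergenic were 23 of the 32 on chromosome 10 and 24 of the 31 on chromosome 12, and introns held 7 and 6. These are 71.9 and 77.4% intergenic and 21.9 and 19.4% intronic, near the 80.7 and 17.8% on the other autosomes. A TSS promoter was given for 0 of the 63, against 9 of 1661 annotated peaks (0.542%) on the other autosomes. At so small a share, 0 of 63 shows no lack of promoters. The other 3 of the 63 were the exon of Hils1 and a pair of transcription termination sites. The annotation of the remaining 590 peaks was not used here. Distances to the nearest genes were not read, so a nearest gene need not be close.

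Under these strongest peaks the LINE and RatSatRep2 shares of chromosome 10 were near those found elsewhere, while the repeats of chromosome 12 differed more. LINE elements lay under 13 of the 32 on chromosome 10 (40.6%, 25.5 to 57.7%), against 39.0% on the other autosomes, and under 4 of the 31 on chromosome 12 (12.9%, 5.13 to 28.9%). RatSatRep2, a repeat of the rat whose class is given as unknown, lay under 9 on chromosome 10 (28.1%) and 7 on chromosome 12 (22.6%), against 28.4%. Satellites were under 1 on chromosome 10 and 8 on chromosome 12 (25.8%, 13.7 to 43.2%), against 6.62% on the other autosomes. Simple repeats lay under 4 of the 63, all on chromosome 10 (12.5% of its 32, 4.97 to 28.1%), against 5.90% on the other autosomes. No repeat was given for 4 on chromosome 10 and 9 on chromosome 12 (29.0%, 16.1 to 46.6%), against 15.4%. The satellite and repeat-free peaks of chromosome 12 came mainly from a pair of short clusters described below, so that they are not independent places.

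**Figure D5:**
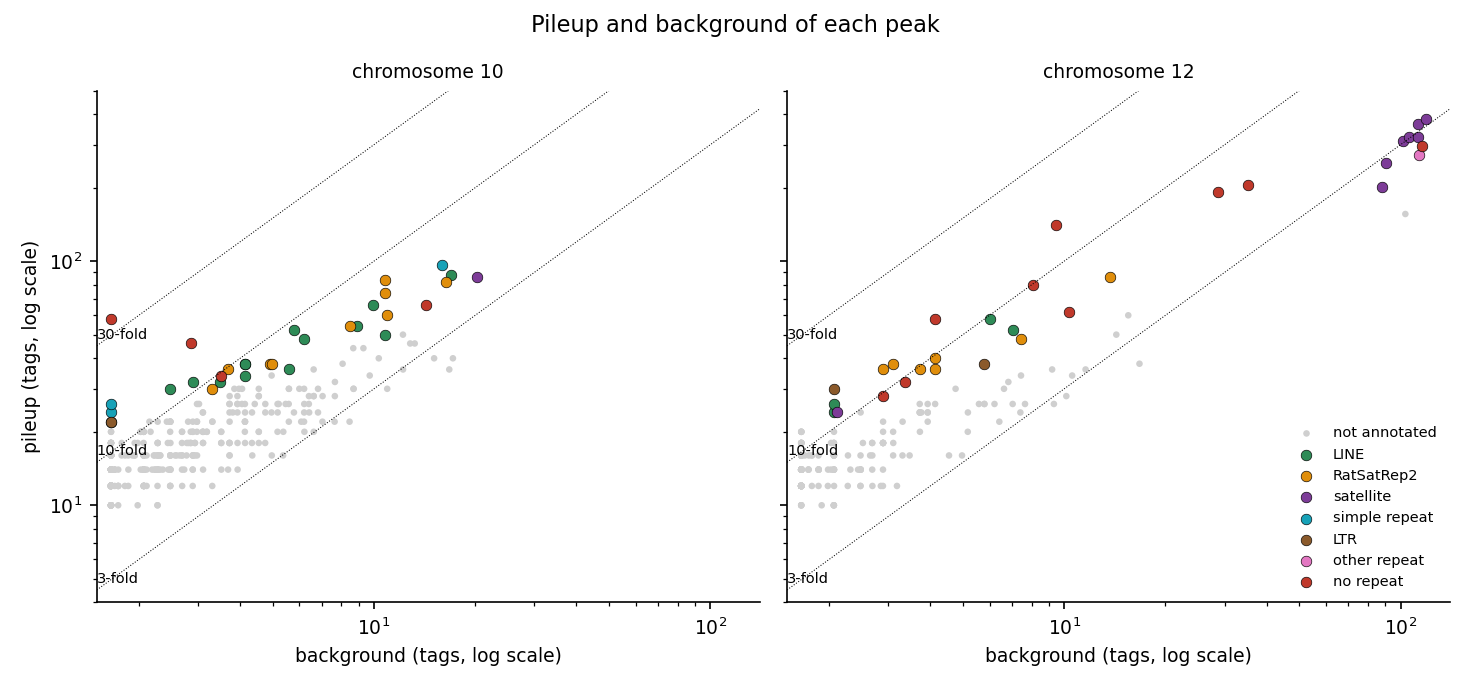
Pileup against background for each of the 418 peaks of chromosome 10 (left) and 235 peaks of chromosome 12 (right) on log scales, with dotted lines at fold enrichments of 3, 10 and 30 and the annotated peaks coloured by the repeat under them. The peak at 58 tags over 1.65 tags on the left is that of Hils1, and the satellite peaks at the upper right of chromosome 12 have backgrounds near 100 tags and fold enrichments near 3.

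The Hils1 peak stood out among the 418 of chromosome 10. It was 591 bp long, with 58 tags over the smallest background and a fold enrichment of 35.08 (95% exact Poisson interval 26.6 to 45.3), and its -log10 p-value of 67.95 was also the largest of the chromosome. In the whole list it ranked 16 by fold enrichment and 111 by p-value. When tags are counted as pairs the interval widens to 23.5 to 50.4. Its interval does not reach the next fold enrichment on the chromosome, 16.12, which is described next. It was also the only one of the 63 annotated peaks whose nearest gene is that of a linker histone.

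Olfactory receptor genes, which encode odorant receptors, were the nearest genes of 7 of the 32 annotated peaks of chromosome 10 (21.9%, 95% Wilson interval 11 to 38.8%), at 5 genes, against 3.85% (3.03 to 4.89%) of those on the other 18 autosomes. Peaks that share a nearest gene are not independent, and the difference was not tested. The share of such receptors among the genes of each chromosome was not computed, so the values show no preference for these genes. The strongest by fold enrichment was chr10:60124890-60125176, at a transcription termination site with Olr1474 as nearest gene and with no repeat, where 46 tags gave 16.12 (11.8 to 21.5). An intronic RatSatRep2 peak nearest to the same gene, chr10:60123302-60123907, had 7.72 (5.46 to 10.6). Near Olr1378, chr10:12716694-12717642 had 84 tags and the second largest -log10 p-value of the chromosome, 45.39, with a fold enrichment of 7.81 (6.23 to 9.67) in RatSatRep2. The 7 fold enrichments ranged from 4.24 at Olr1460 to 16.12. On chromosome 12 the group was empty (0 peaks).

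Some small peaks of chromosome 10 had large fold enrichments. The GAA repeat lay under chr10:53942440-53942729, nearest to Myh8 (a myosin heavy chain of skeletal muscle), where 26 tags gave 15.72 (10.3 to 23). It also lay under chr10:84304217-84304420, nearest to Skap1, an adaptor protein of T cells whose gene lies beside the Hoxb cluster, with 24 tags and 14.51 (9.30 to 21.6). The peak of the fifth largest fold, chr10:5574987-5575199, lay in an LTR element nearest to Rpl39l, a ribosomal protein gene expressed in testis, with 22 tags and 13.31 (8.34 to 20.2). All 3 were called against the smallest background, and their intervals overlap.

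The tallest peak of chromosome 10 had a high background. At chr10:2922595-2922815, in a CTAACC repeat, a permutation of the repeat unit of telomeres, with Rrn3 (an initiation factor of RNA polymerase I) as nearest gene, 96 tags over a background of 15.9 tags gave 6.03 (4.88 to 7.36). The remaining one of the 5 largest -log10 p-values was at chr10:70456987-70457525, a RatSatRep2 repeat nearest to LOC688925, with 74 tags and 6.88 (5.40 to 8.64). The largest background on chromosome 10 was 20.3 tags.

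On chromosome 12 the 3 largest -log10 p-values belonged to peaks whose nearest gene is Pdx1, a homeobox gene of pancreas development that lies between Cdx2 and Gsx1. The strongest, chr12:9544890-9545659, had 140 tags over 9.47 tags and a fold enrichment of 14.78 (12.4 to 17.4), and ranked 27 in the list by its -log10 p-value, 109.70. It was followed by chr12:9540291-9540575, with 192 tags and 6.68 (5.77 to 7.69), and chr12:9549204-9549490, with 206 tags and 5.86 (5.09 to 6.72). The pair of taller peaks thus had lower fold enrichments than the first, with intervals that do not overlap its own. All 5 annotated peaks nearest to Pdx1 were intergenic, carried no repeat annotation and fell within 17.6 kb, and their backgrounds ranged from 3.36 to 35.2 tags.

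A satellite cluster gave the tallest peaks of either chromosome. The 6 annotated SATI_RN peaks, all with Clec4m (a C-type lectin gene) as nearest gene, lay within 16.7 kb and had 202 to 382 tags over backgrounds of 88.2 to 119 tags. The highest was chr12:3350349-3352654, the longest peak of both chromosomes at 2306 bp, with a fold enrichment of 3.20 (2.89 to 3.54). At chr12:3356350-3357460 it was 3.24 (2.92 to 3.59). The whole group ran from 2.29 to 3.24, below the median fold of chromosome 12.

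The 5S ribosomal RNA gene Rn5s, which RNA polymerase III transcribes, had a peak at its transcription termination site. At chr12:1510113-1510702, 296 tags stood over a background of 116, which is 2.55-fold (2.27 to 2.86). Another peak nearest to Rn5s, chr12:1512044-1512577 in a BC1_Rn repeat, had 272 tags over 113 and 2.40 (2.12 to 2.70). By fold enrichment these peaks ranked 11339 and 11408 of 11570, so both were weakly enriched. In GRCr8 the listed neighbours of the gene have LOC symbols only, and whether copies of the gene bear on these values was not tested.

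Of the 18 peaks of chromosome 12 with a fold enrichment of at least 10, 10 were at the smallest background, beside 14 of 19 on chromosome 10 and 296 of 768 on the other autosomes. Among those above it, the LTR peak chr12:50992279-50992882, nearest to Mn1 (a transcriptional coregulator), had 30 tags and 14.51 (9.79 to 20.7). A peak nearest to Cdk8, a kinase of the Mediator complex, chr12:10458112-10458481, had 58 tags and 14.03 (10.7 to 18.1) with no repeat. Their intervals overlap that of the strongest peak nearest to Pdx1.

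Vomeronasal receptor genes, which encode pheromone receptors, were nearest to 6 of the 31 annotated peaks of chromosome 12 (19.4%, 9.19 to 36.3%), at 4 genes, and to 0 on chromosome 10, against 2.47% (1.82 to 3.33%) on the other 18 autosomes. This too was not tested, and the share of such receptors among the genes of each chromosome was not computed. An L1_Rn peak nearest to Vom2r59, chr12:3968128-3968425, reached 12.58 (8.22 to 18.4) with 26 tags, and a RatSatRep2 peak nearest to Vom2r61, chr12:20025985-20026300, had 36 tags and 12.44 (8.71 to 17.2). A satellite peak also nearest to Vom2r59, chr12:3652517-3652804, had 252 tags over 90.6 tags and 2.78 (2.45 to 3.15). The group therefore held both small enriched peaks and a tall peak of low enrichment.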

How the data were processed

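The H1T2 list was made by the authors from 2 merged IP and 2 merged input alignments to rn6 (Bowtie2, unique alignments, per the methods). Per the file headers MACS 2.0.9 was run with broad calling at a p-value of 5e-05, tags being extended to 200 bp; the methods name another MACS version and cutoff. The methods and the header both give merged alignments, but the methods also describe peaks called first in each replicate, and a supplementary caption calls the peaks shared by the replicates. Of 34071564 IP tags 16203958 were kept (at most 2 per position), and of 83508652 input tags 78371120 (at most 3). Depth of single samples was not given in the sources used here. The deposited pileup is a signal, the tags at the summit. As deposited, fold enrichment is a ratio, pileup over local background. The deposited -log10 p-value was recovered within 0.1 as a Poisson probability for 651 of the 653 peaks. All pileups are even (0 were odd).

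Background was computed as pileup divided by fold enrichment. The span from the first base to the last peak stood in for chromosome length, as no rn6 genome was used. Intervals (95%) are exact Poisson for counts, densities and fold enrichment (background held fixed), Wilson for shares and order-statistic for medians. Functions were tested on simulated peaks. Nearest genes, categories and repeats are from HOMER annotation by the authors, matched by chromosome, start and end, for the 1930 peaks that the table at hand holds. Peaks named are, on each chromosome, the 5 of the largest -log10 p-value and the 5 of the largest fold, annotated peaks neither intergenic nor intronic, the strongest 2 of the densest bin, and groups by nearest receptor or linker histone gene. The SATI_RN and Pdx1 groups and the BC1_Rn peak nearest to Rn5s were described after their values were seen. The chromosomes and lists were chosen with earlier results of these data known. Planned distances to single genes in rn6 were not computed. Python 3.11.15, numpy 2.4.6, pandas 2.3.3, scipy 1.17.1 and matplotlib 3.10.9 were used.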

Additional observations from a re-analysis of the deposited data

How the results depend on the processing

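Counts and medians were recomputed with 12 other choices, 1 of which (without the first 5 Mb) was made after the data were seen. All 64 differences in median length, pileup, background and fold enrichment between either chromosome and the other autosomes kept their direction. With a fold enrichment of at least 5, a filter on the compared measure, the difference in median fold was 0.01 on both chromosomes, and that in background fell from -1.45 to -0.62 tags on chromosome 10 and from -1.65 to -0.91 on chromosome 12. Without the peaks at the smallest background the difference in fold fell from 0.98 to 0.52 and from 1.21 to 0.58, and that in length on chromosome 12 from -24 to -2.5 bp. Others grew. Among peaks whose -log10 p-value reached 10, the difference in length on chromosome 10 went from -13 to -26 bp and that in fold on chromosome 12 to 1.7, and with pairs the differences in fold were 1.33 and 1.56.

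A -log10 p-value of at least 10 left 172 and 98 peaks on chromosomes 10 and 12, with median pileups of 22 and 23 tags, backgrounds of 2.85 and 2.79 tags, fold enrichments of 7.91 and 8.71 and, on chromosome 12, a length of 261.5 bp. A fold of at least 5 gave backgrounds of 2.03 and 1.74 tags. With tag pairs counted once, 257 and 144 peaks passed a limit of 1e-05 on the p-value, with median pileups of 9 and 9 pairs and fold enrichments of 8.23 and 8.46. This limit is stricter than the 5e-05 at which the list was called, so the effects of pairing and of the limit were not separated. Without the peaks at the smallest background, 271 and 142 were left, with lengths of 264 and 273.5 bp, pileups of 20 and 19 tags, backgrounds of 3.10 and 2.89 tags and fold enrichments of 6.16 and 6.22. In bins of 2 Mb the densest bin of chromosome 10 had 10 peaks per Mb, against 6.40. Pairs halve the pileup and the background (to 1.16 and 1.03 pairs) by construction, and smaller bins allow a larger maximum; the causes of the other shifts were not tested. The other 56 of 84 values stayed within their interval, or within 1.5 times for counts, with each pair taken as 2 tags.

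No paired analysis was possible because the list holds no values per replicate. Most pileups are of 10 to 30 tags, which limits the fold of a single peak. Unsequenced stretches in rn6 and mappability were not analysed, so that their part in the background was not tested.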
